A study of Mus musculus with 2 samples.

Results

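The replication-dependent histone genes are the clustered genes that supply the bulk of histone protein for newly copied DNA. They were taken as all protein-coding genes of the GENCODE M21 annotation whose symbol starts with Hist1h, Hist2h, Hist3h or Hist4h, which gave 67 of 21853 nuclear protein-coding genes. Among them were 6 genes for the linker histone H1, 18 for H2A, 18 for H2B, 12 for H3 and 13 for H4. The Hist1 cluster held 54 of them over 2.22 Mb of chromosome 13, the Hist2 cluster held 10 on chromosome 3, Hist3 held 2 on chromosome 11, and Hist4h4 lay alone on chromosome 6. DNase-seq, which maps DNA that the enzyme DNase I can cut in nuclei, was done on hippocampal tissue (1 label gives it as a layer of the hippocampus) of female B6CASTF1/J mice aged 2 months, which are F1 offspring of C57BL/6J and CAST/EiJ parents. The study has 1 group with 2 libraries, labelled biological replicates 1 and 2, and thus no contrast between conditions. Both replicates carry the same donor record, and the labels do not say whether the tissue came from separate animals, so the spread between them may be technical.

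Transcription of these genes is switched on as cells enter S phase, under the coactivator NPAT in the histone locus body. Their mRNAs have no poly(A) tail and end in a conserved stem-loop that is bound by the stem-loop binding protein SLBP. Promoters of the classes carry their own known elements: the H4 element bound by HINFP, the octamer of H2B promoters bound by POU2F1 (OCT1), and the AC-rich H1 box of linker histone genes. H2A and H2B genes often stand in divergent pairs around a common promoter, and several genes of a class are nearly identical copies. Most neurons of the adult hippocampus no longer divide, while some precursor and glial cells do.

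The stem-loop was searched in the members only and was found in the sequence within 150 bases after the stop codon in 63 of 67 members. It is shown in its most frequent form, carried by 41 members, with the 6-base stems in capitals and the 4-base loop in lower case.
stem-loop: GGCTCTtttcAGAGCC
A total of 6 different sequences of this form occurred, beginning 22 to 59 bases after the stop codon (median 31). None was found in that window of Hist1h2an, Hist1h3g, Hist1h4a and Hist2h2be. Only perfectly paired 6-base stems starting with GG, around a 4-base loop starting with TT, were counted. A stem-loop with a mismatch or another loop would therefore be missed.

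The H4 genes had the highest median promoter values of the classes in both libraries, and in most of their promoters a footprint lay on the core of the H4 element. A footprint is a short stretch inside accessible DNA that is cut less than its surroundings, as the authors listed it. The core GGTCCG was present on either strand in 11 of 12 H4 promoters of the RefSeq table for GRCm38.p6 (250 bases before to 50 after the start). The 11 elements are shown as 40 bases each, ordered from the highest to the lowest mean promoter value, with the core at bases 21 to 26 and capitals for bases that lay in a footprint of either library.
Hist1h4c: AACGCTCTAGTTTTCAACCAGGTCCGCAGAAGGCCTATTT
Hist1h4d: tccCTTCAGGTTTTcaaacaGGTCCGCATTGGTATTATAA
Hist1h4h: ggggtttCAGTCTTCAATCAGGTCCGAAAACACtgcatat
Hist1h4i: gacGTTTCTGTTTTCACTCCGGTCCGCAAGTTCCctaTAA
Hist4h4: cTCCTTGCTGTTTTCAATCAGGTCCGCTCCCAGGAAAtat
Hist1h4f: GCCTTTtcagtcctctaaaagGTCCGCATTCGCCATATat
Hist1h4k: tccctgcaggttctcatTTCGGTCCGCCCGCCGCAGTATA
Hist1h4b: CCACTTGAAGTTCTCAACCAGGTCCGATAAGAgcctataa
Hist1h4j: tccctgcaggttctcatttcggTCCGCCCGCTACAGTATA
Hist1h4m: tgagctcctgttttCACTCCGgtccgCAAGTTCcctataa
Hist1h4n: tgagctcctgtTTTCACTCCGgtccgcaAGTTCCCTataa
The Hist1h4c element lies at chr13:23698485-23698524 on the minus strand, Hist1h4d at chr13:23581501-23581540 on the plus strand, Hist1h4h at chr13:23531019-23531058 on the plus strand and Hist1h4i at chr13:22041389-22041428 on the minus strand (GRCm38). Hist4h4 has its element at chr6:136804444-136804483 on the minus strand, Hist1h4f at chr13:23551695-23551734 on the minus strand, Hist1h4k at chr13:21750566-21750605 on the minus strand and Hist1h4b at chr13:23756923-23756962 on the plus strand. That of Hist1h4j lies at chr13:21734996-21735035 on the plus strand, Hist1h4m at chr13:21811679-21811718 on the plus strand and Hist1h4n at chr13:21832224-21832263 on the minus strand. Hist1h4a had no GGTCCG in its window, and Hist2h4 has no entry in the table.

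Promoters of the other classes are shown as the 250 bases before the RefSeq start, again with footprint bases of either library in capitals, for the member of each class that has the highest mean promoter value and an entry. Hist1h4c (chr13:23698459-23698708, minus strand) shows the H4 element in a wider footprint. Hist1h1c (chr13:23738557-23738806, plus strand) stands for H1, Hist2h2aa2 (chr3:96240375-96240624, minus strand) for H2A, Hist2h2bb (chr3:96269450-96269699, plus strand) for H2B and Hist1h3e (chr13:23562386-23562635, minus strand) for H3. Within 250 bp of the Hist2h2aa2 start, 7.73% of 36-base sequences occur once in the genome, so the footprints shown for it are uncertain. The pair Hist1h2bf/Hist1h2ad is shown as the 184 bases between its starts (chr13:23574197-23574380, plus strand), and Hist1h1t (chr13:23695561-23695810, plus strand) as a member with no peak.
Hist1h4c: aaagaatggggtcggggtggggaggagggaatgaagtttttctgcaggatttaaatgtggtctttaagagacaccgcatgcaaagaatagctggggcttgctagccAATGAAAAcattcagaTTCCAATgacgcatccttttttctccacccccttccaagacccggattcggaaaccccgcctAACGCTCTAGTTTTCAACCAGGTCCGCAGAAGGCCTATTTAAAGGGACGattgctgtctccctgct
Hist1h1c: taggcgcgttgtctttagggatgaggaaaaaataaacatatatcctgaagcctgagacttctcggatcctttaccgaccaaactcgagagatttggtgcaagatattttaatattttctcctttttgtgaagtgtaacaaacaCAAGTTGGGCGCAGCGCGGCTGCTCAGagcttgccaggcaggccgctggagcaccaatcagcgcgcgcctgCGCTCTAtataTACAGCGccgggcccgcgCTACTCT
Hist2h2aa2: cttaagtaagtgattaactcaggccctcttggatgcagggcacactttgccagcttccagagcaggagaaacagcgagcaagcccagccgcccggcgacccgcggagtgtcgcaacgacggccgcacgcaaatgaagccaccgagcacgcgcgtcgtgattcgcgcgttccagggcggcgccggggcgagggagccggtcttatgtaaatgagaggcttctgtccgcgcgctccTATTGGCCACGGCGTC
Hist2h2bb: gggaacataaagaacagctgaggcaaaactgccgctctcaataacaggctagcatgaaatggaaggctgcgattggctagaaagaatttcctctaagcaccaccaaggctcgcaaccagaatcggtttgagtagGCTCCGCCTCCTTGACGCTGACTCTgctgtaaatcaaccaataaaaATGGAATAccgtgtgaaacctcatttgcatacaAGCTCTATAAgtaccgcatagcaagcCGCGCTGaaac
Hist1h3e: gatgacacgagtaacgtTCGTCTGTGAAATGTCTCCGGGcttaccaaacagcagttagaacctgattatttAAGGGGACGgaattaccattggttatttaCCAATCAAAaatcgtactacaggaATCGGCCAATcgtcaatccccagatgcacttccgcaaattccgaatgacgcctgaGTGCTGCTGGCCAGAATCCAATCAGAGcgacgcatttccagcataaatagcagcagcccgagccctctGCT
Hist1h2bf/Hist1h2ad: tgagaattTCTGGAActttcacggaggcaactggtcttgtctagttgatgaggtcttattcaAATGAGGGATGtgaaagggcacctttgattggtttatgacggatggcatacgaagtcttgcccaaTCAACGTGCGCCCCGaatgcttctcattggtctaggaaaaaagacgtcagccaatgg
Hist1h1t: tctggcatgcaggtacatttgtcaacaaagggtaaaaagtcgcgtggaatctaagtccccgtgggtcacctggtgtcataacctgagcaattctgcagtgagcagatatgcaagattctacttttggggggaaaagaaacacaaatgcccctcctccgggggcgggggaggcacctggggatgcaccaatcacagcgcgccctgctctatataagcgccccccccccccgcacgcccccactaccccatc
In Hist1h4c a footprint covered the whole H4 element core in both libraries. Hist1h1t, whose window holds the H1 box AAACACA and a CCAAT box, had no footprint, but it had no peak either. A footprint lies by definition inside accessible DNA, so this absence tells nothing about those motifs.

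The libraries differed in size. The longer peak list held 129779 peaks over 24.5 Mb in replicate 1 and 71895 peaks over 14.6 Mb in replicate 2, and the footprint lists held 227153 and 118610 footprints. The peak value is a signal that the authors scaled to each library in a way that is not stated, so a ratio between replicates rests on that scale. No source gives the read depth, and with 2 libraries no test between them was made. As a check of the tissue label, with markers chosen after the data were seen, all 5 listed neuron genes and all 4 genes of hippocampal principal neurons (among them Prox1 and Wfs1) had a promoter peak in both libraries. Of 5 glial genes, 3 had one in replicate 1 (Olig2, Aldh1l1 and Mog) and 1 in replicate 2 (Olig2), while Gfap and Cx3cr1 had none. Over all protein-coding genes 59.0% had a peak in both.

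Most members had an accessible promoter. A peak of the longer list lay wholly or partly in the window of 1 kb around a transcription start site, or TSS, on either side in 57 of 67 members in replicate 1, or 85.1% (95% Wilson interval 74.7% to 91.7%), against 63.4% of all protein-coding genes. In replicate 2 it was 56 of 67, or 83.6% (72.9% to 90.6%), against 60.4% of all genes. The 56 members were accessible in both libraries, against 59.0% of all genes. The intervals cover counting error only, and members that share a promoter are not independent. No test sets the members against other genes, and the shares are given as a description. In bulk tissue, fewer cells with an open promoter and less opening per cell cannot be told apart.

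The strongest peak at the promoter (the promoter value, 0 where there was no peak) had a median over all 67 members of 4.01 in replicate 1, against 1.20 over all protein-coding genes. In replicate 2 the medians were 1.77 over the members and 1.17 over all genes, so the members stood closer to the whole in replicate 2. Among the members, 6 lay in the top 10% of genes in replicate 1, where 10.0% of all genes lie by construction. In replicate 2 it was 7, beside 9.96% of all genes. The members were thus accessible more often than genes at large, and their pooled share among the strongest promoters was near the background. That share differed by class: 3 of 13 H4 genes lay in the top 10% in replicate 1 and 6 in replicate 2. For H1 and H2A it was 1 and 0 genes, for H2B 0 and 0, and for H3 1 and 1. The H3 gene was Hist1h3a, whose strongest peak is that of Hist1h4a. The H1 gene was Hist1h1c, by a peak with its middle 1002 bases after the TSS.

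The classes differed in level. The H4 genes had median promoter values of 5.69 in replicate 1 and 4.81 in replicate 2, with a peak at 13 of 13 in both libraries. H2A genes had medians of 4.25 in replicate 1 and 1.79 in replicate 2 (14 of 18 accessible in both), H2B genes 3.92 and 1.64 (15 of 18), and H3 genes 4.05 and 1.80 (10 of 12). By these windows linker histone H1 genes had the lowest medians, 1.44 in replicate 1 and 1.23 in replicate 2, with 4 of 6 accessible in both. A window of this size can take in a neighbour's peak and miss a start far from the annotated TSS. By peaks within 100 bp of the TSS or start codon alone (0 where there was none), medians were 2.00 in replicate 1 and 1.51 in replicate 2 in H1, with 5 of 6 accessible in both. They were 3.91 and 1.50 in H2A, 3.87 and 1.56 in H2B, 2.75 and 1.48 in H3, and 5.69 and 4.81 in H4, so H1 was lowest in replicate 1 but not in replicate 2. On the scale of ranks among all protein-coding genes, the median H4 gene stood at percentile 84.3 in replicate 1 and 89.3 in replicate 2. The median H2A gene stood at percentile 76.7 in replicate 1 and 58.2 in replicate 2. The ranges of all classes overlapped.

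**Figure D1:**
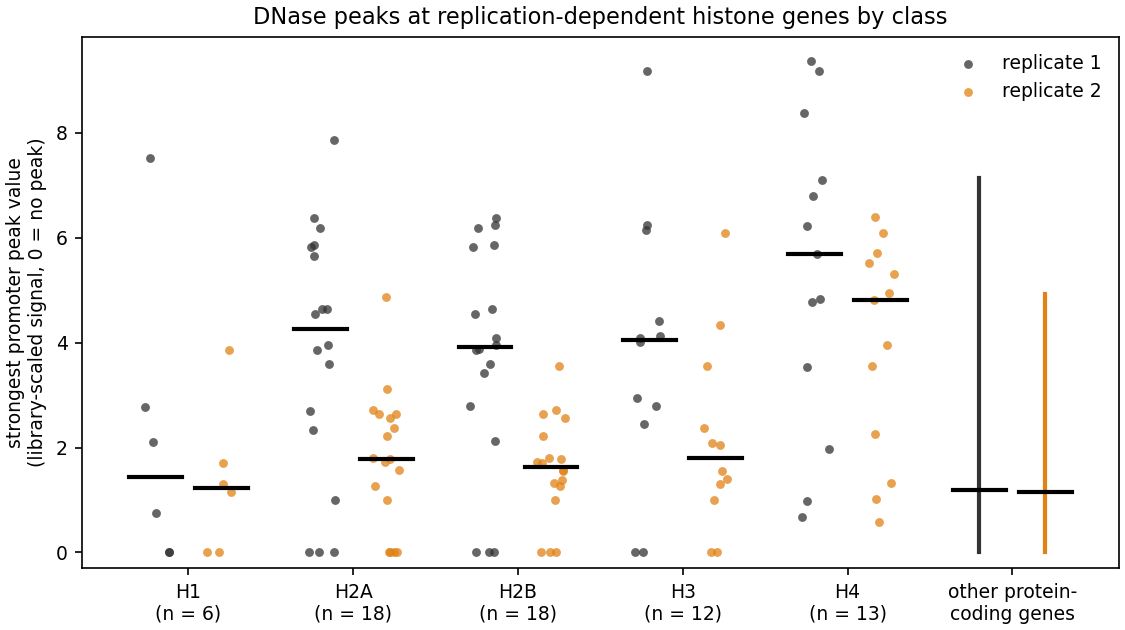
Strongest promoter peak value (library-scaled signal, 0 where there was no peak) of each histone gene by class and library, with 1 point per gene and a bar at the median. For the other protein-coding genes the line runs from the 10th to the 90th percentile. The H4 medians of 5.69 and 4.81 are the highest of the 5 classes in both libraries.

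The linker histone genes encode the H1 proteins that bind DNA between nucleosomes. Hist1h1c had the highest promoter value, 7.52 in replicate 1 and 3.86 in replicate 2, but the middle of that peak lay 1002 and 1022 bases after the TSS. At its own start, within 100 bp of the TSS or the start codon, its peaks had values of 2.01 and 2.07. This start was therefore accessible at a similar value in both libraries, below that of the peak farther downstream. That downstream peak lay inside the gene record of Hist1h1c itself. Hist1h1e had 2.78 in replicate 1, from a peak 838 bases after its TSS and inside its own gene record, and 1.71 in replicate 2. The peak of replicate 1 is nearer to a TSS annotated for Hist1h2be, which lies 35138 bases from the start codon of Hist1h2be. At its own start Hist1h1e had 2.00 and 1.71. Hist1h1a had 2.11 in replicate 1 and 1.30 in replicate 2, and Hist1h1b 0.760 and 1.16. The Hist1h1b values come from different peaks, since the strongest peak of replicate 2 lay 1025 bases after the TSS and its own start had 0.671 there. Hist1h1d had no peak within 1 kb of its annotated TSS, which lies 1828 bases before its start codon. At the start codon of Hist1h1d, a peak had a value of 2.18 in replicate 1 and 1.83 in replicate 2, so the 5 somatic H1 genes were accessible at the TSS or the start codon. Hist1h1t encodes the testis H1 variant, and it had no peak and no footprint in either library.

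H2A and H2B form the dimers of the nucleosome core. Their genes made up 12 divergent pairs, with 176 to 306 bp between the starts (median 259.5). In 9 pairs both genes had the same strongest peak in both libraries, and the other 3 pairs had no peak in either library. Each such pair thus gives 1 measurement, not 2. The strongest was Hist1h2bf/Hist1h2ad, with 6.38 in replicate 1 and 2.72 in replicate 2, its starts 185 bp apart. Hist1h2an/Hist1h2bp had 5.86 in replicate 1 and 2.57 in replicate 2, and Hist1h2ac/Hist1h2bc had 6.19 and 1.77. The weakest pair with a peak, Hist1h2ak/Hist1h2bn, had 3.60 in replicate 1 and 1.26 in replicate 2. All 9 pairs were thus lower in replicate 2.

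In the smaller clusters, Hist3h2a had the highest H2A value of replicate 1, 7.87, and 2.37 in replicate 2. Its neighbour Hist3h2ba, the H2B gene of that cluster, had 3.88 in replicate 1 and 1.70 in replicate 2. Hist2h2aa2 led the H2A class by its mean, with 5.65 in replicate 1 and 4.87 in replicate 2. Its close copy Hist2h2aa1 had 2.70 in replicate 1 and 3.12 in replicate 2, and 41.1% and 43.8% of the 36-base sequences in the windows of Hist2h2aa2 and Hist2h2aa1 occur once in the genome. The levels of this copy pair are uncertain for that reason. Hist2h2bb led the H2B class by its mean, with 6.25 in replicate 1 and 3.56 in replicate 2. The Hist2h2ac/Hist2h2be pair had 4.64 in replicate 1 and 2.63 in replicate 2, and the window of Hist2h2ab took in the same peak, while its own start had 3.41 and 2.32. The lowest members with a peak were Hist1h2bm (2.13 and 1.00) among H2B genes and, among H2A genes, Hist1h2af (2.34 and 1.00) and Hist1h2ab. Hist1h2ab was the only member with a peak in 1 library alone. It had a value of 1.01 in replicate 1 and no peak in replicate 2, where 11 bases within 500 bp of its start were listed under a false discovery rate (FDR) of 0.05.

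H3 genes encode the core histone that carries many of the known histone tail marks. The highest window value, 9.19 in replicate 1 and 6.09 in replicate 2 at Hist1h3a, came from the neighbouring Hist1h4a promoter. At its own start Hist1h3a had 1.76 and 1.25. Hist1h3e had the highest values at its own start, 6.15 in replicate 1 and 4.33 in replicate 2. Likewise, the window of Hist2h3b held the Hist2h2bb peak of 6.25 and 3.56, while the start of Hist2h3b itself had 2.57 and 1.96. By window values Hist1h3d was the lowest of the H3 genes with a peak, with 2.45 in replicate 1 and 1.00 in replicate 2. In all, the strongest peak of 8 members had its middle over 500 bp from the TSS in at least 1 library.

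H4 genes encode the least variable core histone, which the 13 copies supply. Hist1h4c led with 9.36 in replicate 1 and 6.39 in replicate 2, ahead of Hist1h4a with 9.19 and 6.09 and Hist1h4d with 8.38 and 4.81. Hist2h4 had 6.79 in replicate 1 and 5.31 in replicate 2, and Hist4h4, which stands alone, had 5.69 and 4.95. The solitary gene thus lay at the class median in replicate 1 and just above it in replicate 2. At the low end, Hist1h4m had 0.973 in replicate 1 and 1.02 in replicate 2, and Hist1h4n had 0.681 and 0.578. The windows of this copy pair hold 4.83% and 5.09% of 36-base sequences that occur once in the genome, and their level is uncertain for that reason.

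Values in replicate 2 were lower than in replicate 1 in 52 of the 56 members with a peak in both, and in 73.7% of the 12839 other genes with a peak in both. The median log2 ratio of replicate 2 over replicate 1 was -1.01 over the members (a ratio of 0.498), against -0.30 (0.810) over all genes with a peak in both. Over the 2179 other genes in the top 10% of replicate 1, a group chosen by that library's own values, the median log2 ratio was -0.71 (0.613). By class, the median log2 ratio was -1.21 in H2A, -1.19 in H2B, -0.98 in H3, -0.70 in H1 and -0.36 in H4, where it ran from -1.08 (Hist1h4b) to 0.16 (Hist1h4k). The H1 value compares different peaks for Hist1h1e and Hist1h1b. At the genes' own starts the median log2 ratio was -0.22 in H1 (5 genes), -1.19 in H2A, -1.26 in H2B, -0.89 in H3 and -0.36 in H4. The medians of H1 and H4 were thus closer between the libraries than those of H2A and H2B, and the source of this difference was not tested. Over the 56 members the log2 values of the replicates had a Pearson correlation of 0.781 and a Spearman correlation of 0.827, and over 42 separate peaks 0.799 and 0.837. These correlations are across genes that share the 2 libraries and partly the same peaks, and they are given as descriptions.

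**Figure D2:**
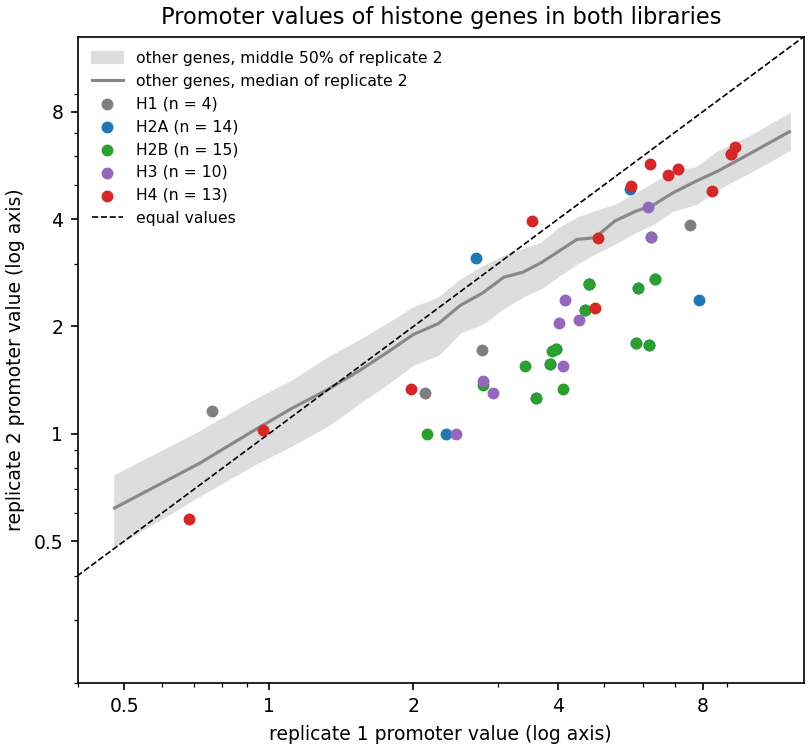
Promoter values of the 56 members with a peak in both libraries, replicate 2 against replicate 1 on log axes, coloured by class. The grey line and band give the median and middle 50% of replicate 2 for other genes of like replicate 1 value, and genes that share a peak fall on the same point. Most H2A, H2B and H3 points lie under the band, while most H4 points lie in or above it.

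The peaks within 1 kb of the members' starts made up 60 regions with a peak in both libraries, 15 in replicate 1 only and 8 in replicate 2 only. The bases listed by the authors under an FDR of 0.05 for their cut rate give the shape of this accessible DNA. Within 500 bp of the start, the median member had 466 listed bases in replicate 1 and 586 in replicate 2, against 278 and 229 in other protein-coding genes. At 60 to 41 bases before the TSS, 82.1% of members were listed in each library, and all 13 H4 genes were. The highest share in other genes was 49.9% in replicate 1 and 47.9% in replicate 2. In replicate 1, the stretch with more than 50% of the highest share reached from 380 bases before to 159 bases after the TSS in H2A and from 400 before to 159 after in H2B. In other protein-coding genes it ran from 340 before to 439 after, so the upstream reach of H2A and H2B was not far from that of genes at large, and all 5 classes reached less far downstream. In replicate 2 the stretch began 500 bases before the TSS in H2A, 400 before in H2B and 320 before in other genes. In H3 genes the stretch of replicate 1 ran from 220 bases before to 119 after, and in H4 genes from 240 before to 199 after. The upstream side of a divergent H2A or H2B gene is the promoter and gene of its partner.

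**Figure D3:**
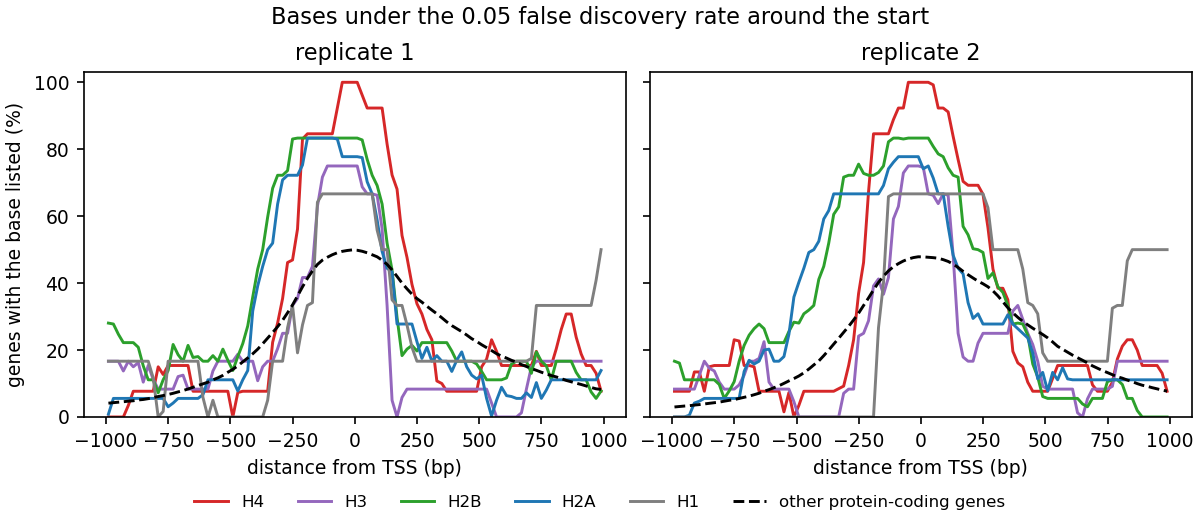
Share of genes (%) whose base at each distance from the TSS (bp, bins of 20 bases) was listed under an FDR of 0.05, by histone class and for other protein-coding genes (dashed), in each library. All 13 H4 genes were listed just before the TSS, and the listed stretch of H2A and H2B genes reached farther upstream than that of H3 and H4 genes.

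Members without a peak fell into 2 kinds. Of the 10 with none in either library, 6 lay in repeated sequence: Hist1h2bq, Hist1h2ao, Hist1h2ap and Hist1h2br, where 0% of the 36-base sequences in the window occur once in the genome, and Hist2h3c1 and Hist2h3c2, with 19.9% and 20.9%. Accessibility there could not be judged, since the treatment of reads with several possible positions is not given. The other 4 had 90% or more unique sequence. They were Hist1h1d, described above, and 3 genes known for expression in testis: Hist1h1t and the pair of Hist1h2ba and Hist1h2aa, which encode the testis H2B and H2A. Of the 44 members with 50% to under 90% unique sequence, all 44 were accessible in replicate 1 and 43 in replicate 2. Of the 13 members with 90% or more, 9 had a peak in each library. With the 10 members under 50% left out, 52 of 57 members had a peak in both libraries.

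**Figure D4:**
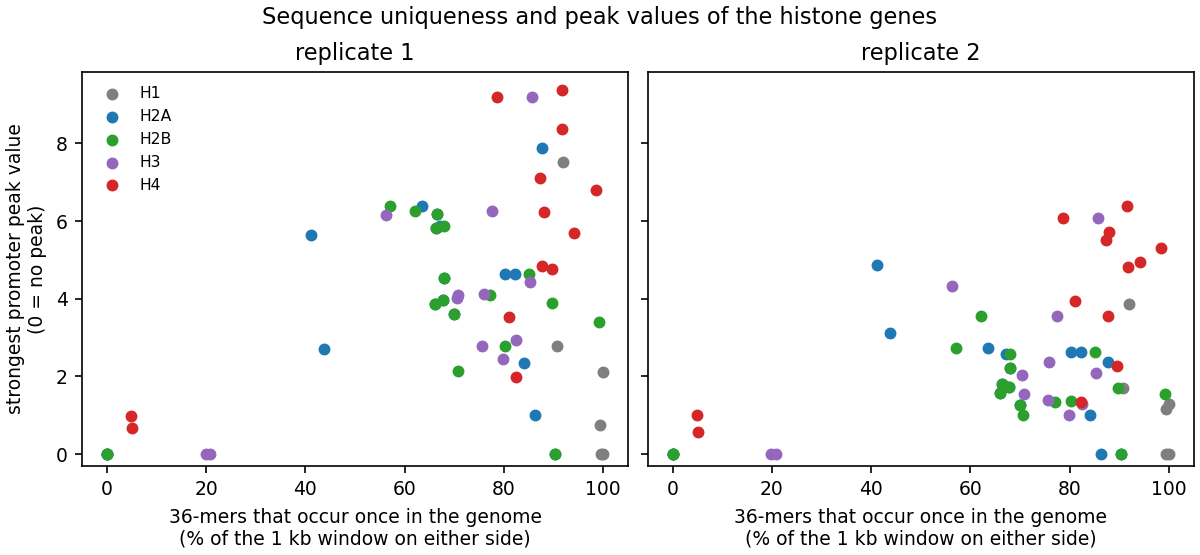
Strongest promoter peak value (0 where there was no peak) of each member against the share of 36-base sequences in the 1 kb on either side of its TSS that occur once in the genome, coloured by class. The 6 members at 0 with under 50% unique sequence lie at the left, and the 4 at 0 with 90% or more lie at the right.

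Footprints were listed within 1 kb of the TSS in 57 members in replicate 1, where 60.6% of all protein-coding genes had one, and in 56 members in replicate 2, where 57.5% did. The median member had 4 footprints in replicate 1 and 3 in replicate 2, against 3 and 2 over all genes. Within the 300 bases of the RefSeq promoter windows, 12.7% of bases of the 62 members with an entry lay in a footprint in replicate 1 and 7.67% in replicate 2, against 7.70% and 5.46% in 21200 promoters of other genes. A larger share of members than of all genes had a promoter peak, and these comparisons are not restricted to accessible promoters. Windows of divergent pairs overlap, so some bases are counted for both genes. In H4 promoters the shares were 19.0% in replicate 1 and 15.0% in replicate 2, and in H1 promoters 6.06% and 3.56%. The share was thus highest in H4 and lowest in H1 promoters of the 5 classes in both libraries. Hist1h2bc, Hist1h3a, Hist1h3f, Hist2h2be and Hist2h4 have no entry.

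The H4 element core GGTCCG was found in 11 of 12 H4 promoters, or 91.7%, in 1 of 16 H2B and 1 of 10 H3 promoters and in 10.4% of other promoters. At least 50% of the core lay in a footprint at 8 of the 11 H4 matches in replicate 1 and 7 in replicate 2, against 13.4% and 8.35% of matches in other promoters. The other promoters include those of genes without a peak, while all 13 H4 genes had one. Further motifs of the H4 promoters also lay in footprints to that extent. The TATA box TATAAA did at 4 of 8 matches in each library. The GC box GGGCGG did at 7 of 13 in replicate 1 and 5 in replicate 2, and CCAAT boxes at 3 of 4 and 1 of 4. In other promoters it was 2.23% of TATA matches in replicate 1 and 1.73% in replicate 2. For GC boxes it was 31.37% and 22.02%, and for CCAAT boxes 10.5% and 6.99%. The same footprint overlapped the core and the TATA box in each library in Hist1h4d and Hist1h4k, and in replicate 1 in Hist1h4j. The GC boxes of Hist1h4d and Hist1h4i lay in footprints apart from that on the core in both libraries. Within H4 promoters a footprint was thus not particular to the H4 element, but these counts partly repeat the footprints on the core. The core lay wholly in footprints of each library in Hist1h4c, Hist1h4h, Hist1h4i and Hist4h4. In Hist1h4m and Hist1h4n, the copies with little unique sequence, footprints stood on either side of the core in 1 library each (replicate 2 for Hist1h4m and replicate 1 for Hist1h4n), overlapping it by 1 base. The core overlapped a GC box in Hist1h4j and Hist1h4k. These matches are letters in a window and are not evidence that HINFP was bound. In Hist1h4a, which lacks the core, footprints of both libraries covered 2 copies of the palindrome TGACGTCA, and the same letters lay in footprints of both libraries in Hist1h4h. This palindrome was chosen after the footprints were seen; it occurred in 4 of 62 members (6.45%) and in 2.22% of other promoters. In the members it was in a footprint at 4 of 4 separate sites in replicate 1 and 3 in replicate 2, and in other promoters at 74.5% and 66.7% of matches, so a footprint on these letters was common in other promoters too.

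**Figure D5:**
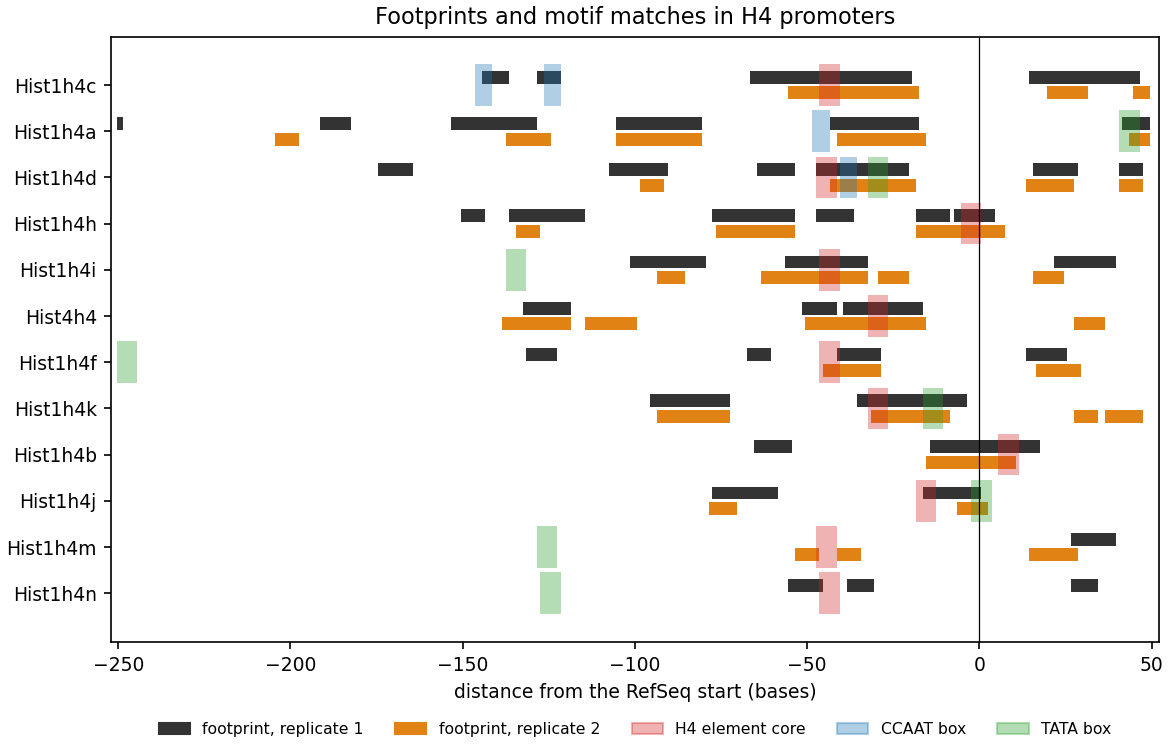
Footprints of replicate 1 (dark) and replicate 2 (orange) and motif matches (shaded) in the 12 H4 promoters with a RefSeq entry, by distance from the RefSeq start in bases, with the highest mean promoter value at the top. In most of the 11 promoters with an H4 element core, a footprint of 1 or both libraries overlaps it.

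The octamer ATTTGCAT occurred in 14 of 62 members (22.6%), against 1.60% of other promoters: 7 of 18 H2A, 7 of 16 H2B and none of the H1, H3 or H4 promoters. The windows of a divergent pair overlap, so the 14 matches are 11 separate sites. None of the 14 matches had 50% or more of its bases in a footprint of either library, against 3.06% and 1.67% of matches in other promoters. The H1 box AAACACA was present in 5 of 6 H1 promoters, all but Hist1h1a, and in 6.12% of other promoters; none of the 9 matches in members was in a footprint to that extent, where 0.799% and 0.944% of matches in other promoters were. CCAAT boxes stood in 53 of 62 members (85.5%), in every H1, H2A, H2B and H3 promoter of the table and in 3 of 12 H4 promoters, against 38.1% of other promoters. The TATA box TATAAA occurred anywhere in the window, on either strand, in 35 members (56.5%), against 12.5%. Beginning 20 to 40 bases before the start and on the strand of the gene, it stood in 12 of 62 members (19.4%), against 2.48% of other promoters. This count rests on the RefSeq start, and in Hist1h2ak and Hist1h2ad a match began 21 and 30 bases after it. Because windows overlap, the 41 TATA matches are 35 separate sites and the 144 CCAAT matches are 109. The octamer was thus confined among the members to H2A and H2B, and CCAAT was scarcest in H4.

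The E2F sites TTTGGCGC or TTTCGCGC, which are bound by factors of the G1 to S transition, occurred in 9 members (14.5%), 5 H2A and 4 H2B, against 1.01% of other promoters. In divergent pairs the same site is counted for both genes, and there were 5 separate sites. At least 50% of the site lay in a footprint at 4 of these 5 in replicate 1 and 1 in replicate 2, against 38.4% and 25.4% of matches in other promoters. The GC box GGGCGG was found in 24 members (38.7%) and in 46.2% of other promoters, so among the 7 motifs chosen at the start it was the only one less frequent in the members. Within the members it was most frequent in H4, with 9 of 12. The ratio of observed to expected CpG dinucleotides had a median of 0.740 in the members and 0.566 in other promoters. All motifs were searched on both strands.

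Genes of the lists that act on the members were accessible in both libraries, where 63.4% of all protein-coding genes had a promoter peak in replicate 1 and 60.4% in replicate 2, with medians of 1.20 and 1.17. All 17 listed regulators and RNA processing factors had a promoter peak in each, with medians of 6.10 in replicate 1 and 4.44 in replicate 2. The highest was Npat, the S-phase coactivator of histone genes, with 12.8 in replicate 1 and 8.52 in replicate 2, followed by Casp8ap2 (FLASH), a component of the histone locus body, with 10.8 and 7.08. All 8 histone chaperones were accessible, with medians of 5.59 and 4.68. Daxx, a chaperone of H3.3, had 8.21 in replicate 1 and 7.05 in replicate 2, and Asf1b, a chaperone of H3 and H4, had 9.75 and 4.94. All 21 S-phase and proliferation genes had a peak in both, with medians of 4.85 and 3.22, led by the replication factors Gins2 (12.0 and 7.16) and Mcm5 (9.65 and 6.35). Accessibility of a promoter is no measure of its transcription.

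Histone genes outside the named clusters include replication-independent variants and germline forms. Of 18 genes, 12 were accessible in replicate 1, 11 in replicate 2 and 11 in both, with medians of 2.45 and 1.88. These counts are near the background of 63.4% and 60.4% of all genes. The highest were H2afv, an H2A.Z gene, with 10.2 in replicate 1 and 7.61 in replicate 2, and H2afx, which encodes the H2A variant marked at DNA breaks, with 10.5 and 4.84. Hils1, a spermatid linker histone, had 0.893 in replicate 1 and no peak in replicate 2. The 6 without a peak were H1foo, the oocyte linker histone, H1fnt, a testis linker histone, H2afb1, H2afb2, H2afb3 and H2bfm.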

How the data were processed

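DNase-seq peaks, footprints and listed bases were deposited by the authors per library on the mm10 build (GRCm38), per the labels; no source used here names the aligner or callers. The deposited peak value is a signal scaled by the authors to each library. Tested on the files, values below 1 were whole multiples of 1 step (0.00884 in replicate 1, 0.0103 in replicate 2; 100% within 0.05 steps). The deposited q-values (FDR) list only bases under 0.05, and the deposited footprint lists carry 0.01 on every line.

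Promoter values were the highest peak value within 1 kb of the start of any protein-coding transcript of the gene in GENCODE M21. Unique 36-base sequences were counted on both strands of the GRCm38.p6 genome. Promoter sequences came from RefSeq (GRCm38.p6) for 62 of 67 members, all matched by RefSeq synonym and all 62 equal to the genome. The placing of CAST/EiJ alleles is not given.

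The members, gene lists and motifs were chosen with earlier results of these data known. Named were all members without a peak in both libraries, all H1, Hist2, Hist3 and Hist4 members, the 3 highest and 2 lowest per class (for Hist1h2bm, Hist1h2af, Hist1h3d and some pairs the choice was made after values were seen), and per gene list the 2 highest and those without a peak in both. No p-values were computed. The assignment of peaks to genes was checked on simulated data: 200 of 200 intervals placed within 1 kb of a TSS were returned for their gene. The authors' calling of peaks was not tested. Python 3.11.15, NumPy 2.4.6, pandas 2.3.3, SciPy 1.17.1, numba 0.67.0 and matplotlib 3.10.9 were used.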

Additional observations from a re-analysis of the deposited data

How the results depend on the processing

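Of 45 recomputed values under other settings, 41 were classed as the same and 4 as moved, and no log2 ratio changed sign. Counts were classed as the same within 1.5 times, and medians within the standard deviation of the medians of the 2 libraries. The log2 ratio was classed as the same only if unchanged, and the 4 that moved were all log2 ratios. The rules for counts and medians are wide, and a count of 56 of 67 members cannot rise by 1.5 times. The median log2 ratio of replicate 2 over replicate 1, -1.01 as reported, was -0.98 with the shorter peak lists (-0.325 over all genes). It was -0.998 with 500 bp windows (-0.298 over all genes) and -0.82 with 2.5 kb windows (-0.309 over all genes). With values divided by the library's median peak value it was -1.32 (-0.614 over all genes). The count of members with a peak in both libraries was 56 with replicate 1 left out and 57 with replicate 2 left out. Over all genes the shares were then 60.4% and 63.4%. The count was 52 with the shorter lists (53.2% of all genes) and 51 with a peak within 100 bp of the TSS (52.4%). When members that share a peak were counted once, it was 42. With 2.5 kb windows, which take in peaks of neighbouring genes, it was 65, beside 61.9% of all genes. With windows around the start codon, where Hist1h1d was added, it was 57, beside 43.2% of all genes. The settings at 100 bp, at the start codon and by unique sequence were chosen after the data were seen. No paired analysis was possible because the labels give 1 group. Depth is unknown, so a missing peak is not shown to be closed chromatin.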

Other observations

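Inside the Hist1 span on chromosome 13 lay 49 other protein-coding genes. Of these, 6 had a promoter peak in replicate 1, 8 in replicate 2 and 5 in both: Zfp184, Zfp322a, Abt1, Btn2a2 and Hfe. The 36 vomeronasal receptor genes (Vmn1r) among the 49, which encode pheromone receptors, had 1 promoter peak in each library and 0 in both. Of the 13 that are not Vmn1r genes, 5 had a peak in replicate 1, 7 in replicate 2 and 5 in both. The low count over the 49 thus came mainly from the Vmn1r genes. In the same span 45 of 54 histone genes were accessible in both libraries. Over all protein-coding genes the shares were 63.4% in replicate 1, 60.4% in replicate 2 and 59.0% in both. Of the 5 accessible neighbours, Hfe encodes a regulator of iron uptake and Zfp184 a zinc finger protein.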
